A study of Homo sapiens with 12 samples.

Results

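The proteasome genes described here are those whose annotated symbol is PSMA, PSMB, PSMC, PSMD, PSME, PSMF or PSMG followed by a number. The rule found 44 genes, each measured by 1 probe set, among the 21448 probe sets of the deposited table, of which 17709 carry a single gene symbol. Of 48 such genes listed by hand, PSME2, PSMC5, PSMD7 and PSMD13 are not analysed here. The immune members are PSMB8, PSMB9, PSMB10 and PSME1, and the remaining 40 are called the other members.

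The arrays measured RNA from H1975 and PC-9, human lung adenocarcinoma cell lines with mutated EGFR. All 4 groups, of 3 arrays each, started from cells that had survived 0.5 µM osimertinib, an inhibitor of mutant EGFR, for 1 week and were taken as tolerant on day 8. The H1975 and PC-9 groups named tolerant received nothing further that the labels record. The H1975 and PC-9 SK-216 groups were tolerant cells given 100 µM SK-216, an inhibitor of plasminogen activator inhibitor-1, from then on, and the cells still alive after 48 h were collected. One label field calls the SK-216 samples naive, against their titles, descriptions and treatment text, which were followed here. Whether the cells stayed in osimertinib while SK-216 was on is not stated, and every group had seen osimertinib, so no comparison here shows an effect of osimertinib. The labels name no tolerant control held for those further 48 h, so the effect of SK-216 and that of the added time cannot be told apart. Nothing in the labels says that the arrays of a group came from separate cultures, so the p-values rest on array-to-array spread alone, and that spread may be technical.

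The proteasome is the cell's main protease for ubiquitin-tagged proteins. A barrel-shaped core of alpha and beta rings holds the active sites, and a regulatory cap of ATPases and non-ATPase subunits binds, unfolds and feeds in the substrate. In the constitutive core the active sites belong to PSMB5, PSMB6 and PSMB7. In the immunoproteasome they are replaced by PSMB8, PSMB9 and PSMB10, which interferon gamma induces and which favour the cutting of peptides that fit MHC class I molecules. PSME1 and PSME2 form an interferon-inducible activator that docks on the core in place of the cap. In tumours, lung cancer among them, the balance of the forms is followed because it shapes which peptides reach the cell surface.

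Promoter sequences of the immune members are shown because interferon acts on genes it induces through short elements near the start site. The promoter of PSMB5, a constitutive subunit, is shown beside them for comparison. They come from RefSeq (GRCh38.p14) and run from 150 bases before to 30 bases after an annotated start, 5′ to 3′ on the strand of the gene, with motif matches in capitals. PSMB8 is shown at chr6:32844018-32844197 (minus strand), the second of its annotated starts, PSMB9 at chr6:32854042-32854221 (plus strand), PSMB10 at chr16:67936821-67937000 (minus strand), PSME1 at chr14:24136044-24136223 (plus strand) and PSMB5 at chr14:23034871-23035050 (minus strand). PSMB8 and PSMB5 each have another annotated start, where the same stretch held no motif match. For both genes the start with a match is shown.
PSMB8: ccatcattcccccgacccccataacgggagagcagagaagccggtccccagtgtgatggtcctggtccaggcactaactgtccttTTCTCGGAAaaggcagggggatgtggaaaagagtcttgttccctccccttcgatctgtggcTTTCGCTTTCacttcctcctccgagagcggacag
PSMB9: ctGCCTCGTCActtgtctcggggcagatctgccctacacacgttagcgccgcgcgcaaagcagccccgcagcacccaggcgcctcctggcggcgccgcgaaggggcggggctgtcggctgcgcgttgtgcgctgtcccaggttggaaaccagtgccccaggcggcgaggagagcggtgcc
PSMB10: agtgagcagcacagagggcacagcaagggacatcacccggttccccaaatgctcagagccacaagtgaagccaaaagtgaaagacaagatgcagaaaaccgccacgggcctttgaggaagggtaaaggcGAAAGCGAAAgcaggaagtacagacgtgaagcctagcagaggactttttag
PSME1: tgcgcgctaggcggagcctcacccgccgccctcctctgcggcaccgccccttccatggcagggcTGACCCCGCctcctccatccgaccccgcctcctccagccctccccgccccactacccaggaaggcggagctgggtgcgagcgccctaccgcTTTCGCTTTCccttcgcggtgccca
PSMB5: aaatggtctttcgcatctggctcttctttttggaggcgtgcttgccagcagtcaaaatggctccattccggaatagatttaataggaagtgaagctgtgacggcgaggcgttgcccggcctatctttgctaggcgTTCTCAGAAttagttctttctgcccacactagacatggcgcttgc
The motifs searched on both strands were the core of the interferon-stimulated response element (GAAA, any pair of bases, GAAA), the gamma-activated site, TTCNNNGAA, and the element bound by NFE2L1 and NFE2L2, TGACNNNGC. Windows of 250 bases before to 50 bases after the start were supplied for 38 of the 44 members. The interferon core stood in 3 of 4 immune members (PSMB8, PSMB10 and PSME1) and in 3 of the 34 other members with a window (PSMA4, PSMB4 and PSMG4), against 4.38% of all 27305 genes with windows. PSMB9 had no such match in its own window. A window of TAP1, its neighbour on the opposite strand, held 2, at -134 and -128 from the TAP1 start. The gamma-activated site stood in 8 of 38 members, PSMB8 and PSMB5 among them, against 9.38% of genes. The NFE2L1 and NFE2L2 element stood in 13 of 38 members, PSMB9 and PSME1 among them, against 16.1% of genes. A match describes these letters and does not show that a factor binds there.

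Values are deposited log2 signals, so a difference of 1 is a 2-fold change. They ran from 2.19 to 18.61, the array medians lay between 6.56 and 6.62, and arrays of a group correlated at r from 0.993 to 0.995 over probe sets. The 95th percentile of 348 olfactory receptor probe sets, genes of the nasal epithelium, was 5.14, and 42 of the 44 members lay above it. The exceptions were PSMA8, an alpha subunit of the testis, and PSMB11, a beta subunit of thymic epithelium. PSMA8 ran from 3.55 to 4.45 and PSMB11 from 4.04 to 4.74 over the 12 arrays. All 5 epithelial markers lay above that level in every group, while all 3 lung lineage markers measured, NKX2-1, NAPSA and SFTPB, lay within it in at least 1 group. Of 10 leukocyte markers, 4 lay within it in every group, PTPRC, CD3D, MS4A1 and LYZ, and 4 lay above it in every group, CD68, CD74, CD14 and CSF1R. Of 5 fibroblast markers, DCN and LUM lay within it in every group and 3 lay above it in every group. Summed over the leukocyte list, log2 signal was 59.33 to 59.77 in tolerant H1975, 57.92 to 60.86 in H1975 with SK-216, 62.38 to 63.06 in tolerant PC-9 and 60.95 to 62.21 in PC-9 with SK-216. Some markers of these lists also passed with SK-216 in H1975, where 3.80% of all probe sets passed. Of the 5 epithelial markers 2 fell, CDH1 by 1.55 ± 0.13 and KRT8 by 0.24 ± 0.06, and EPCAM rose by 0.77 ± 0.13 (adjusted p = 4.51e-08, 0.0287 and 0.00044 in limma). CD74, an MHC class II chaperone, fell by 0.47 ± 0.12 as the only 1 of the 10 leukocyte markers to pass, and COL1A1 fell by 0.96 ± 0.21 as the only 1 of the 5 fibroblast markers (adjusted p = 0.0236 and 0.00693 in limma). CD14 was at -0.74 ± 0.21 (adjusted p = 0.0508 in limma). In the 12 fits without 1 array, KRT8 was lost in 5 (each H1975 array but SK-216 array 3), CD74 in 4 (tolerant array 1 or 3, SK-216 array 2 or 3) and COL1A1 in 2 (tolerant array 1, SK-216 array 3), with adjusted p up to 0.121, 0.115 and 0.0640 in limma. KRT8 and CD74 were also lost without a trend in the prior variance (0.376 and 0.114) and with H1975 fitted alone (0.0758 and 0.0600). No marker passed in PC-9 with SK-216. There 1 epithelial, 2 lung lineage, 1 leukocyte and 1 fibroblast marker had an unadjusted p below 0.05, against 10.9% of all probe sets. The part of these markers in the changes of the immune members and interferon genes was not tested.

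The first question was whether the proteasome genes of tolerant H1975 cells differ after SK-216. None of the 44 members passed the test in limma at a Benjamini-Hochberg adjusted p below 0.05 over all probe sets, a threshold that 3.80% of all probe sets passed, 1.44% higher and 2.35% lower. At an unadjusted p below 0.05 there were 6 of 44 members against 14.2% of all probe sets. The 4 immune members were all lower in mean signal with SK-216, with a median change of -0.45, whereas the 40 other members had a median change of -0.02 and the table as a whole 0.01. Of the 40, 16 were above 0 and 24 below, a split that became 21 and 19 after quantile normalization. Other core subunits also leaned downward. The median was -0.12 for the 7 alpha subunits (6 below 0), -0.19 for the 3 constitutive catalytic subunits (2 below 0) and -0.13 for the 4 structural beta subunits (3 below 0). It was -0.02 for the 5 cap ATPases, -0.01 for the 12 non-ATPase members and 0.03 for the 4 assembly chaperones. Without SK-216 array 3 the median of the immune members was -0.28, and all 4 stayed below 0.

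PSMB8, the chymotrypsin-like immune subunit, read 11.17, 10.85 and 11.35 in the tolerant H1975 arrays and 10.84, 10.84 and 10.35 in those with SK-216. PSMB9, which takes the place of PSMB6, read 12.74, 12.70 and 13.18 in tolerant cells and 12.54, 12.67 and 12.07 with SK-216. PSMB10, which takes the place of PSMB7, read 7.23, 6.73 and 7.32 in tolerant cells and 6.17, 6.69 and 6.53 with SK-216. For each of these genes all SK-216 arrays lay below all tolerant arrays, but the nearest pair of arrays differed by little, and 9.56% of all probe sets separated downward in the same way. The change was -0.45 ± 0.14 (SE, n = 3 arrays a group) for PSMB8, with a 95% interval from -0.74 to -0.15 and an adjusted p of 0.0907 in limma. It was -0.45 ± 0.14 for PSMB9 (interval -0.73 to -0.16, adjusted p = 0.0805 in limma). For PSMB10 it was -0.63 ± 0.24 (interval -1.12 to -0.14, adjusted p = 0.175 in limma). PSME1, a subunit of the interferon-inducible activator, read 11.59, 11.30 and 11.61 in tolerant cells and 11.19, 11.32 and 11.03 with SK-216. These arrays overlapped, and the change of -0.32 ± 0.16 did not pass (adjusted p = 0.358 in limma).

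**Figure D1:**
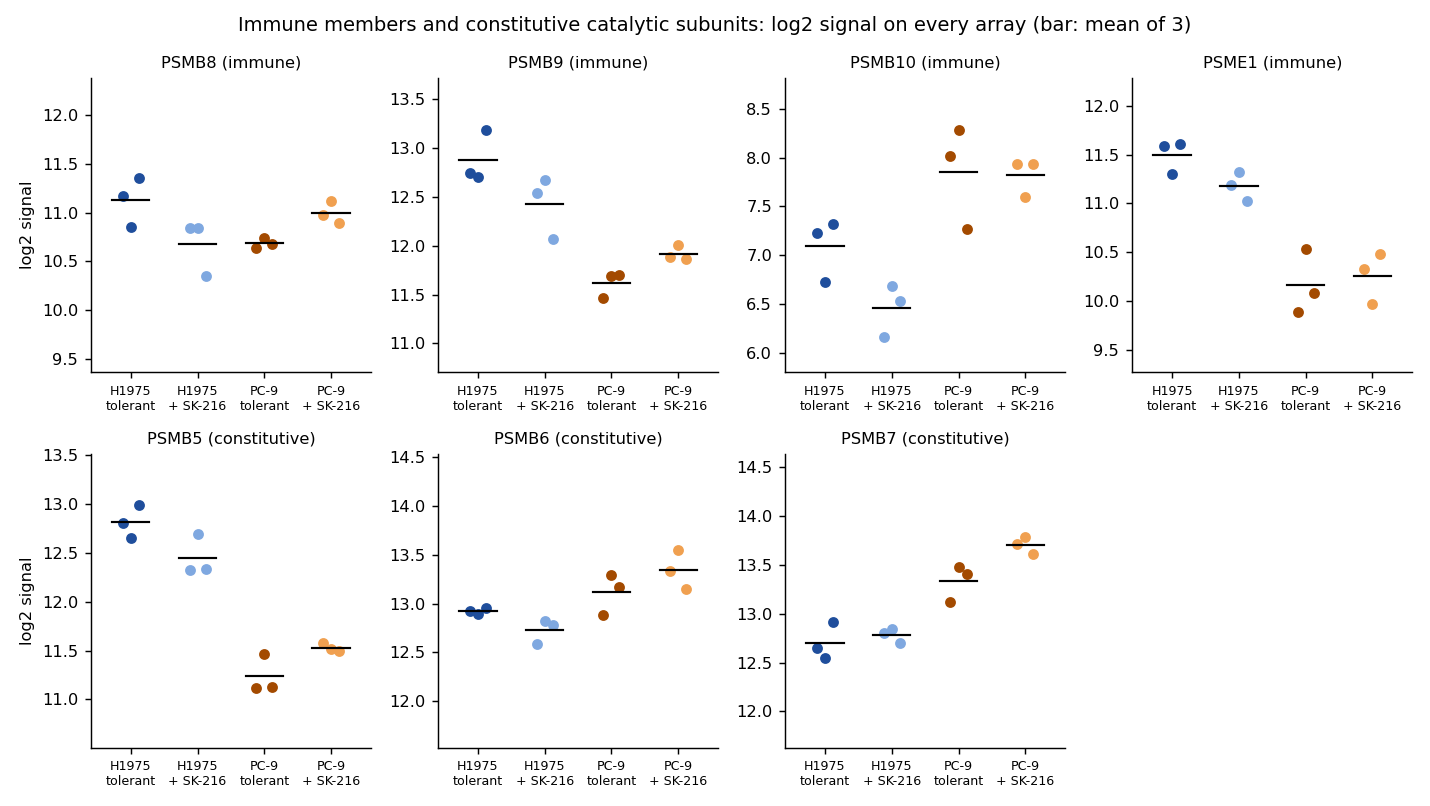
Deposited log2 signal of each of the 12 arrays (points) and the group means (bars) for PSMB8, PSMB9, PSMB10 and PSME1 and for the constitutive catalytic subunits PSMB5, PSMB6 and PSMB7, with the 4 groups along the horizontal axis of each panel. PSMB8 and PSMB9 lie lower with SK-216 in H1975 and higher in PC-9, without overlap in either line, and PSMB5 lies lower in PC-9 than in H1975.

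The constitutive catalytic subunits gave 1 case much like the immune ones. PSMB5, the constitutive chymotrypsin-like subunit, read 12.80, 12.65 and 12.99 in tolerant H1975 and 12.32, 12.69 and 12.33 with SK-216, with overlap at 1 array. Its change was -0.37 ± 0.12 (adjusted p = 0.112 in limma). PSMB6, the caspase-like subunit, read 12.92, 12.89 and 12.95 against 12.59, 12.82 and 12.78, a change of -0.19 ± 0.11 (adjusted p = 0.487 in limma). Its arrays separated, but the change was small. PSMB7, the trypsin-like subunit, read 12.65, 12.55 and 12.91 against 12.80, 12.84 and 12.70, a change of 0.08 ± 0.11 with overlapping arrays. Elsewhere in the core the lowest values were those of PSMB3, a structural beta subunit, at -0.37 ± 0.13, and PSMA4, an alpha subunit, at -0.33 ± 0.12, with adjusted p of 0.136 and 0.180 in limma, and PSMB3 separated downward too. The 12 non-ATPase cap members, which by symbol include the cap assembly factors PSMD5, PSMD9 and PSMD10, stayed between -0.09 and 0.14, and the 5 cap ATPases between -0.13 (PSMC1) and 0.09 (PSMC4). PSMG4 at -0.19 and PSMG3 at 0.19 bounded the 4 assembly chaperones. PSMA8 at 0.36 ± 0.21 was the highest of the 44, at a signal within the olfactory range. Besides PSMA8, PSME4, a cap-like activator, and PSMD4, a ubiquitin receptor, separated upward, and that direction held for 8.95% of all probe sets.

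Within an array, the log2 ratio of an immune subunit to the constitutive one it replaces did not move together for all 3 pairs. PSMB10 over PSMB7 was lower with SK-216 by 0.71 ± 0.19 (SE of the difference of means), without overlap, for an exact two-sided permutation p of 0.1, the smallest that 3 arrays against 3 allow. The change was -0.08 ± 0.16 for PSMB8 over PSMB5 (exact permutation p = 0.6) and -0.26 ± 0.25 for PSMB9 over PSMB6 (exact permutation p = 0.6), both with overlapping arrays. A ratio shows unequal change and does not say which gene moved.

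Single arrays moved these values both ways. Without SK-216 H1975 array 3, PSMB8 was at -0.28 and PSMB9 at -0.27 (adjusted p = 0.411 and 0.409 in limma), and without tolerant H1975 array 3 PSMB9 was at -0.29 and PSMB5 at -0.28 (adjusted p = 0.394 for PSMB5 in limma). Without tolerant H1975 array 2, PSMB8 passed at -0.58 (adjusted p = 0.0327 in limma). Without SK-216 H1975 array 2, PSMB9 at -0.57 and PSMB5 at -0.49 passed (adjusted p = 0.0336 and 0.0335 in limma).

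In PC-9 the same treatment went with small upward differences over most members. None of the 44 members passed in limma, against 0.443% of all probe sets (0.373% higher and 0.0699% lower), and 9 of 44 had an unadjusted p below 0.05 against 10.9% of all. The mean was higher with SK-216 for 39 of the 44, against 49.4% of all probe sets, and the median change was 0.19 against 0.00 for the table. After quantile normalization 37 of 44 were above 0 with a median of 0.14, and without tolerant PC-9 array 1 it was 37 of 44 with a median of 0.12. Probe sets of 1 complex share their arrays, so these counts are a description and carry no p. The arrays separated upward for 15 members, against 8.21% of all probe sets, and downward for 0 members, against 6.80%.

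The 15 were PSMA2, PSMA4 and PSMA5 of the alpha ring, PSMB5, PSMB7, PSMB8 and PSMB9 of the beta ring, PSMC2, PSMC3 and PSMC6 of the ATPases, PSMD1, PSMD2, PSMD8 and PSMD10 of the non-ATPase group, and the chaperone PSMG1. PSMB7 had the highest change, from 13.12, 13.48 and 13.40 in tolerant PC-9 to 13.71, 13.78 and 13.61 with SK-216, or 0.37 ± 0.11 (adjusted p = 0.164 in limma). PSMB8 read 10.64, 10.74 and 10.68 in tolerant PC-9 and 10.97, 11.12 and 10.89 with SK-216. PSMB9 read 11.46, 11.69 and 11.70 in tolerant PC-9 and 11.88, 12.01 and 11.86 with SK-216. Neither pair of groups overlapped. The changes were 0.31 ± 0.14 for PSMB8 and 0.30 ± 0.14 for PSMB9 (adjusted p = 0.436 and 0.434 in limma). PSMB5 read 11.12, 11.46 and 11.13 in tolerant PC-9 and 11.58, 11.52 and 11.49 with SK-216, a change of 0.29 ± 0.12 (adjusted p = 0.372 in limma).

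PSMB10 and PSME1 did not separate in PC-9. PSMB10 read 8.02, 8.28 and 7.27 in tolerant PC-9 and 7.93, 7.60 and 7.93 with SK-216, a change of -0.04 ± 0.24 whose interval ran from -0.53 to 0.45. PSME1 read 9.89, 10.53 and 10.09 against 10.33, 9.97 and 10.48, a change of 0.09 ± 0.16 with an interval from -0.23 to 0.41. The spread of these genes over 3 arrays leaves changes of that size in either direction possible. PSMB6 read 12.88, 13.29 and 13.17 against 13.33, 13.55 and 13.15, a change of 0.23 ± 0.11 with overlapping arrays. The only members with a mean below 0 were PSMD5 at -0.12, PSMA8 at -0.09, PSMB10 at -0.04 and PSMB11 at -0.02, while PSMD11, a scaffold subunit of the cap, was at 0.00. By role, the median change was 0.28 for the 5 ATPases, 0.23 for the 4 chaperones, 0.17 for the 7 alpha subunits and 0.13 for the 12 non-ATPase members. The within-array ratios of the 3 catalytic pairs changed by 0.01 ± 0.11 (PSMB8 over PSMB5), 0.07 ± 0.09 (PSMB9 over PSMB6) and -0.40 ± 0.36 (PSMB10 over PSMB7), all with overlapping arrays.

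**Figure D2:**
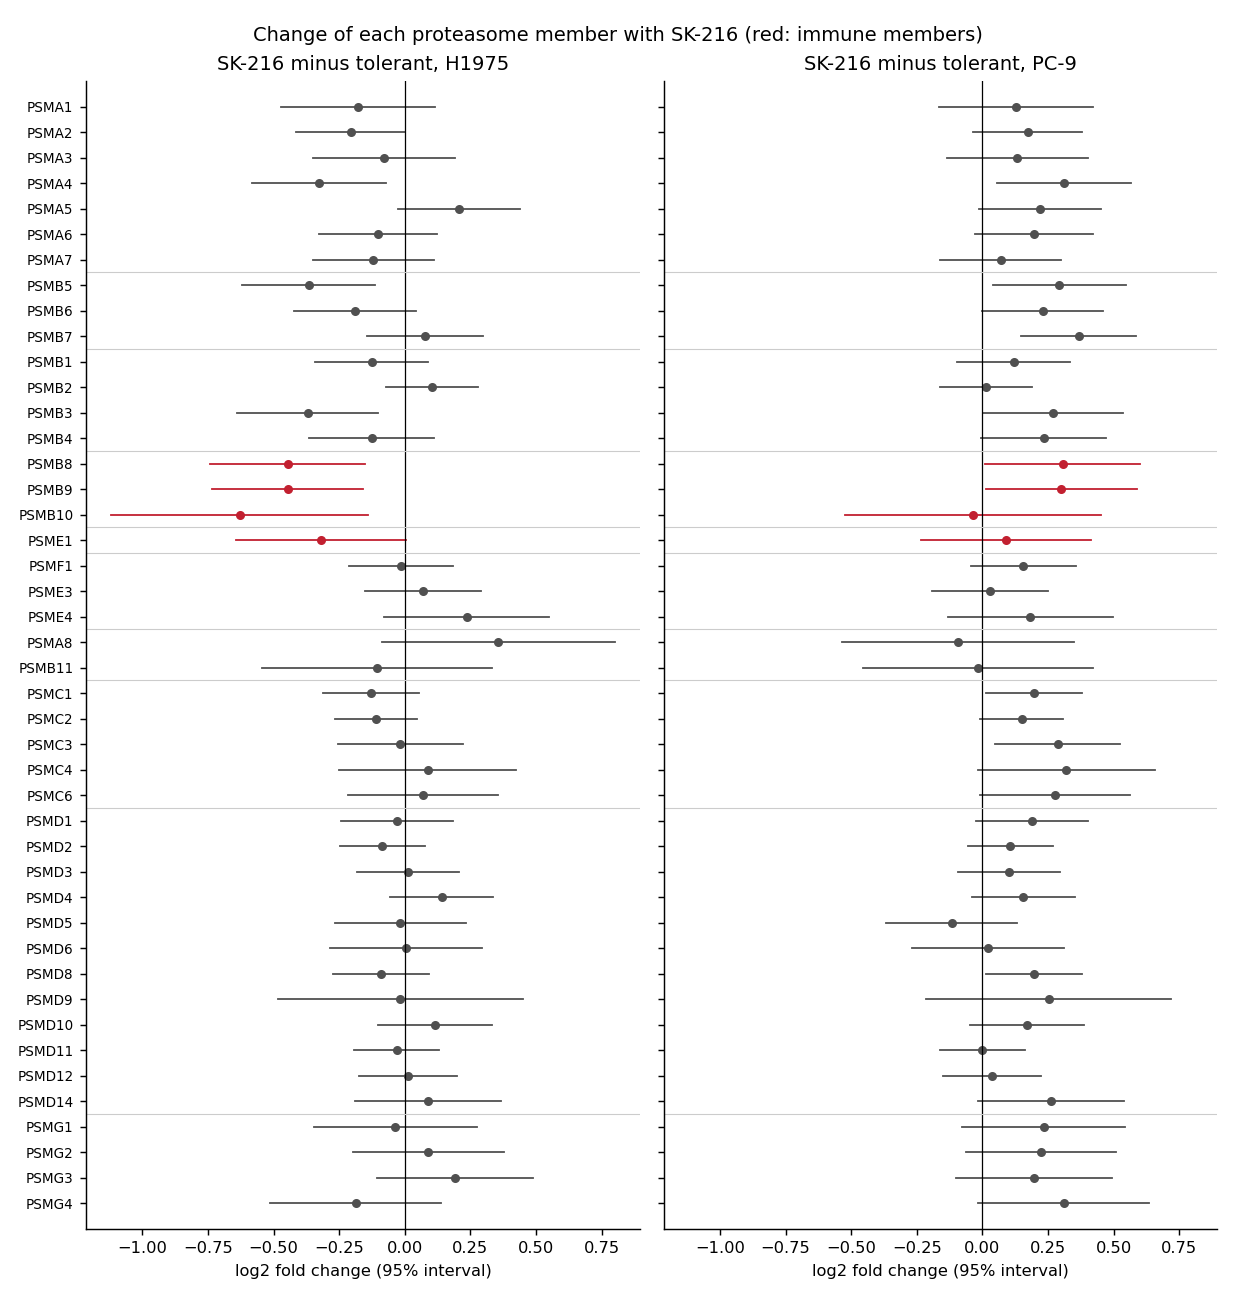
Change in log2 signal with SK-216 (SK-216 minus tolerant, point with its 95% interval from limma) for the 44 members, grouped by role, in H1975 and in PC-9. In H1975 the 4 immune members (red) lie below 0, and PSMB5, PSMB3 and PSMA4 lie lower than the immune member PSME1. In PC-9 39 of the 44 points lie to the right of 0.

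The difference between the lines, the SK-216 change in PC-9 minus that in H1975, was tested directly. None of the 44 members passed in limma, against 1.42% of all probe sets (1.09% higher and 0.331% lower), and 12 had an unadjusted p below 0.05 against 12.7%. The difference was above 0 for 39 of 44 members, with a median of 0.23 (33 of 44 and 0.17 after quantile normalization), and above 0 for all 4 immune members, with a median of 0.67. The smallest adjusted p belonged to PSMB5 at 0.66 ± 0.17 (0.0572 in limma), followed by PSMB9 at 0.75 ± 0.20 (0.0595), PSMB8 at 0.75 ± 0.20 (0.0640), PSMA4 at 0.64 ± 0.17 (0.0722) and PSMB3 at 0.64 ± 0.18 (0.0865). PSMB10 at 0.59 ± 0.33 and PSME1 at 0.41 ± 0.22 had adjusted p of 0.493 and 0.467 in limma. The values nearest to 0 included PSMA5 at 0.01 and PSMD12, a cap lid subunit, at 0.02, and the lowest was PSMA8 at -0.45 ± 0.30.

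The calls of these differences went with the setting. Without a trend in the prior variance the smallest adjusted p of the 44 was 0.214 in limma. Without SK-216 H1975 array 3, PSMB8 was at 0.59 and PSMB9 at 0.57 (adjusted p = 0.168 and 0.157 in limma), and without tolerant H1975 array 3 the smallest adjusted p was 0.156, that of PSMB5. With the dimmest 30% of probe sets left out, PSMA4, PSMB5, PSMB8 and PSMB9 passed (adjusted p = 0.0450, 0.0352, 0.0403 and 0.0352 in limma). The same 4 genes passed without tolerant H1975 array 2 (PSMB8 at 0.89, adjusted p = 0.0235) and without SK-216 H1975 array 2 (PSMB5 at 0.78, adjusted p = 0.0185), and PSMB5 and PSMB3 passed without tolerant PC-9 array 2 (adjusted p = 0.0207 and 0.0367 in limma).

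**Figure D3:**
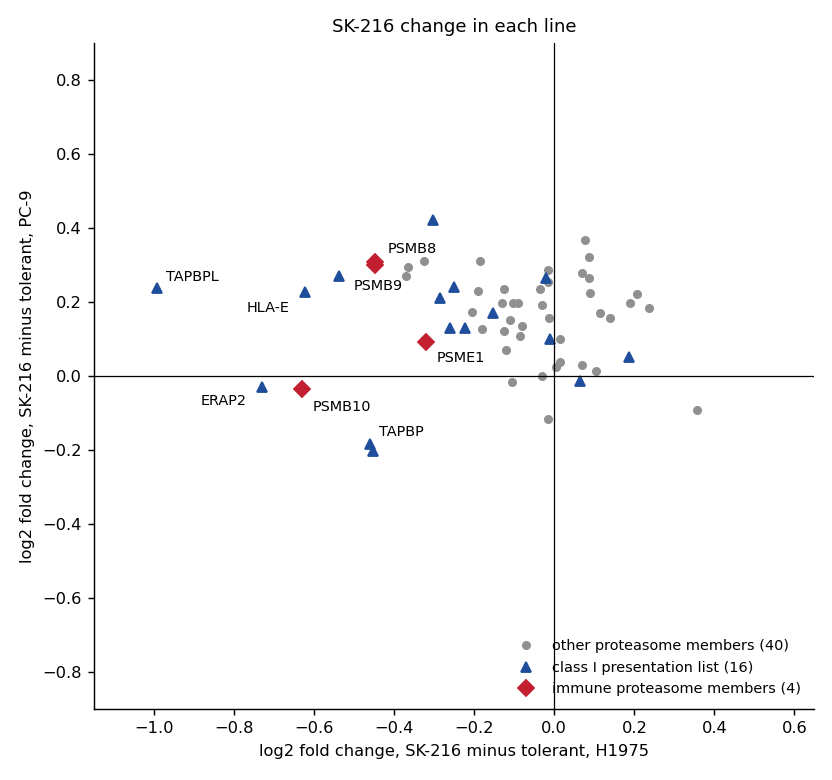
Change in log2 signal with SK-216 in H1975 (horizontal axis) against that in PC-9 (vertical axis) for the 4 immune members (red diamonds), the 40 other members (grey dots) and the 16 measured genes of the class I presentation list (blue triangles). PSMB8 and PSMB9 lie together at -0.45 and about 0.30, while most other members cluster near 0 in H1975 and above 0 in PC-9.

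The genes around the proteasome were read from lists. In H1975, 1 of the 24 measured proteasome partners outside the rule passed, or 4.17%, near the 3.80% of all probe sets. It was UBA1, the main ubiquitin-activating enzyme, which fell by 0.45 ± 0.12 (adjusted p = 0.0304 in limma). That call was lost in 4 of 12 fits that left out 1 array each, those without tolerant array 1 or 2 or SK-216 array 1 or 2 of H1975, with adjusted p up to 0.187, and in the fit whose prior variance had no trend on signal (0.172). POMP, which matures the core, changed by 0.03 ± 0.15 in H1975 and 0.17 ± 0.15 in PC-9. NFE2L1, the factor that raises proteasome genes when proteasome activity is short, changed by 0.29 ± 0.10 (adjusted p = 0.117 in limma) and 0.01 ± 0.10. None of the partners passed in PC-9, where 2 of 24 had an unadjusted p below 0.05, against 10.9% of all probe sets.

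Of 16 measured class I presentation genes, 4 fell in H1975, where 2.35% of all probe sets fell, and none rose, and the median change was -0.27 against 0.01 for all probe sets. They were ERAP2, a peptide-trimming protease (-0.73 ± 0.11, adjusted p = 0.000176 in limma), TAPBPL (-0.99 ± 0.18, adjusted p = 0.00127) and TAPBP (-0.46 ± 0.10, adjusted p = 0.00673), which load or edit peptides, and HLA-E (-0.62 ± 0.13, adjusted p = 0.00437). TAP1, which pumps the peptides into the endoplasmic reticulum and lies beside PSMB9 on the opposite strand, changed by -0.25 ± 0.22 in H1975 and 0.24 ± 0.22 in PC-9, neither passing. In PC-9 none of the 16 passed in limma (2 at an unadjusted p below 0.05, against 10.9% of all probe sets), with a median change of 0.15. The difference between the lines passed for HLA-F (0.72 ± 0.14), TAPBPL (1.23 ± 0.25), HLA-E (0.85 ± 0.18) and ERAP2 (0.70 ± 0.16), with adjusted p from 0.00809 to 0.0200 in limma. The ERAP2 difference was lost in 3 of 12 fits without 1 array (SK-216 H1975 array 2, tolerant PC-9 array 3 and SK-216 PC-9 array 1, adjusted p up to 0.0795) and that of HLA-E without SK-216 PC-9 array 1 (0.0576). In a fit whose prior variance had no trend on signal, the H1975 calls of HLA-E (0.0607) and TAPBP (0.151) and the differences of HLA-F (0.111), TAPBPL (0.0624), HLA-E (0.133) and ERAP2 (0.174) were lost.

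Of 22 measured interferon signalling genes, 6 fell in H1975, against 2.35% of all probe sets, and none rose, with a median change of -0.34. IRF1 and NLRC5 stand in this list and in the class I list. Those furthest past the threshold were GBP2, an interferon-induced GTPase (-1.11 ± 0.13), the interferon gamma receptor chain IFNGR1 (-0.90 ± 0.11), the chemokine CXCL10 (-1.60 ± 0.23) and IRF9, a DNA-binding factor of interferon signalling (-1.12 ± 0.19, adjusted p from 4.3e-06 to 0.00068 in limma). USP18 and CIITA passed nearer the threshold (adjusted p = 0.0405 and 0.0457 in limma). Leaving out any 1 of the 6 H1975 arrays ended both calls (adjusted p up to 0.182 and 0.149 in limma), and CIITA was also lost without SK-216 PC-9 array 1 or 3. USP18 was lost in the fit without a trend as well (adjusted p = 0.0562). With the replicate number as a block, per line or spanning both, USP18 (0.0719 and 0.0537) and CIITA (0.0670 and 0.0561) were lost too. By mean signal CIITA lay within the olfactory range in both H1975 groups (5.14 tolerant, 4.38 with SK-216). CXCL10 lay within it in H1975 with SK-216 (4.24). IRF1, which drives the immune subunits after interferon gamma, changed by -0.54 ± 0.20 in H1975 (adjusted p = 0.172 in limma) and 0.27 ± 0.20 in PC-9. NLRC5, the activator of class I genes, changed by -0.45 ± 0.23 and -0.20 ± 0.23. Its group means, 4.40 to 5.18, lay within the olfactory range except in tolerant H1975 (5.18). None of the 22 passed in PC-9 in limma (1 at an unadjusted p below 0.05, against 10.9% of all probe sets).

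Of 9 measured antioxidant targets of NFE2L1 and NFE2L2, 3 rose in H1975, against 1.44% of all probe sets, the cystine transporter SLC7A11 (1.70 ± 0.09), the haem-degrading HMOX1 (1.36 ± 0.24) and SRXN1 (0.62 ± 0.16, adjusted p = 0.0239 in limma). SRXN1 was lost in 4 of 12 fits without 1 array, those without tolerant array 1 or 2 or SK-216 array 1 or 3 of H1975 (adjusted p up to 0.108 in limma). None passed in PC-9 in limma, where none had an unadjusted p below 0.05 either.

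By count, the lines differed in more of these genes than passed with SK-216 in either line. Between tolerant PC-9 and tolerant H1975, 31 of the 44 members passed in limma, 16 higher in PC-9 and 15 lower, against 44.0% of all probe sets, of which 21.3% were higher and 22.7% lower. The arrays separated for 13 members upward and 16 downward, against 25.0% and 25.3% of all probe sets. The median difference over the 44 was 0.04, so the members did not stand to 1 side. Members of the same ring differed in opposite directions.

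All 4 immune members passed, in mixed directions. PSME1 was lower in PC-9 by 1.33 ± 0.16, or 2.51-fold (adjusted p = 1.03e-07 in limma). PSMB9 was lower by 1.26 ± 0.14, or 2.39-fold (adjusted p = 3.85e-08 in limma), and PSMB8 by 0.44 ± 0.14, or 1.35-fold (adjusted p = 0.0143 in limma). PSMB10 was higher in PC-9 by 0.76 ± 0.24, or 1.70-fold (adjusted p = 0.00991 in limma), though tolerant PC-9 array 3, at 7.27, lay below the highest H1975 array. The PSMB8 call was lost without tolerant H1975 array 3 (-0.32, adjusted p = 0.102 in limma). The PSMB10 call was lost without tolerant H1975 array 2 (0.58, adjusted p = 0.0756) and without tolerant PC-9 array 2 (0.55, adjusted p = 0.0849). TAP1 (-1.18 ± 0.22) and IRF1 (-1.16 ± 0.20) were also lower in PC-9 (adjusted p = 8.07e-05 and 2.95e-05 in limma), and NLRC5 at -0.58 ± 0.23 had an adjusted p of 0.0466.

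The constitutive catalytic subunits did not follow 1 direction either. PSMB5 was lower in PC-9 by 1.58 ± 0.12, or 2.98-fold (adjusted p = 7.53e-11 in limma), PSMB7 higher by 0.63 ± 0.11, or 1.55-fold (adjusted p = 2.14e-05), and PSMB6 at 0.19 ± 0.11 did not pass (adjusted p = 0.181). PSMB6 passed without tolerant PC-9 array 1 (0.31, adjusted p = 0.0278 in limma). As a result the within-array ratios differed by pair: PSMB8 over PSMB5 was higher in PC-9 by 1.14 ± 0.10 and PSMB9 over PSMB6 lower by 1.45 ± 0.15, both without overlap (exact permutation p = 0.1, the smallest possible), while PSMB10 over PSMB7 differed by 0.13 ± 0.35 (exact permutation p = 0.7).

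The largest difference of the 44 was in PSMC1, an ATPase of the cap. PSMC1 read 14.75, 14.59 and 14.71 in tolerant H1975 and 12.31, 12.44 and 12.49 in tolerant PC-9, and 14.63, 14.49 and 14.54 against 12.48, 12.67 and 12.68 with SK-216. Every PC-9 array lay below every H1975 array, with or without SK-216. The difference between the tolerant groups was -2.27 ± 0.09, or 4.82-fold (adjusted p = 1.57e-16 in limma). The other ATPases took other courses: PSMC4 was higher in PC-9 by 1.03 ± 0.16 and PSMC3 by 0.39 ± 0.12, while PSMC2 at -0.07 and PSMC6 at 0.00 did not pass.

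PSMF1, an inhibitor that competes with the activators for the core, read 13.98, 14.11 and 14.09 in tolerant H1975 and 12.55, 12.48 and 12.55 in tolerant PC-9. PSMG1, a chaperone of alpha-ring assembly, read 10.11, 9.95 and 9.84 against 8.44, 8.44 and 8.62. Both separated fully, by -1.53 ± 0.10 for PSMF1 and -1.47 ± 0.15 for PSMG1 (adjusted p = 1.5e-12 and 1.04e-08 in limma). PSMB2, a structural beta subunit, read 13.23, 13.32 and 13.20 in tolerant H1975 and 14.61, 14.66 and 14.43 in tolerant PC-9. PSMA5 of the alpha ring read 11.46, 11.14 and 11.48 against 12.41, 12.56 and 12.61. Both were higher in PC-9 without overlap, by 1.32 ± 0.08 and 1.17 ± 0.11, or 2.49-fold and 2.24-fold (adjusted p = 2.24e-12 and 3.39e-09 in limma).

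Among the remaining alpha subunits PSMA3 (-1.05 ± 0.13), PSMA6 (-0.62 ± 0.11), PSMA1 (-0.54 ± 0.14) and PSMA7 (-0.33 ± 0.11) were lower in PC-9 and PSMA4 (0.34 ± 0.12) higher, while PSMA2 at -0.08 did not pass. Of the structural beta subunits PSMB4 was lower by 0.75 ± 0.12, and PSMB1 at -0.15 and PSMB3 at 0.01 did not pass. In the non-ATPase group 6 of 12 were higher, led by PSMD11 (0.86 ± 0.08), followed by PSMD1 and PSMD10 (both 0.72 ± 0.10), PSMD8 (0.66 ± 0.09), PSMD3 (0.60 ± 0.09) and PSMD2 (0.31 ± 0.08). The 2 lower were PSMD14, the deubiquitinase of the lid (-0.50 ± 0.13), and PSMD6 (-0.40 ± 0.14). The activators PSME4 (0.92 ± 0.15) and PSME3 (0.51 ± 0.11) were higher in PC-9, in contrast to PSME1. Of the chaperones PSMG4 was lower by 1.16 ± 0.16, PSMG2 higher by 0.35 ± 0.14, and PSMG3 at -0.20 did not pass. PSMA8 at 0.06 and PSMB11 at 0.08 did not differ beyond their spread.

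Several of the smaller line differences were lost when 1 array was left out, though PSMD2 passed in all 12 such fits (adjusted p up to 0.0128 in limma). Without tolerant H1975 array 1, PSMD6, PSMA4, PSMG2 and PSMA7 no longer passed (adjusted p = 0.0980, 0.114, 0.185 and 0.0806 in limma), and PSMA4 and PSMG2 were also lost without H1975 array 2 (0.154 and 0.140), PC-9 array 2 (0.0529 and 0.151) or PC-9 array 3 (0.145 and 0.102). Without tolerant H1975 array 3, PSMC3 and PSMA7 were lost (0.0541 and 0.0646), and without tolerant PC-9 array 1, PSMD6 and PSMA7 (0.137 and 0.0971). In a fit whose prior variance had no trend on signal, PSMD6, PSMA4, PSMG2 and PSMA7 were lost (0.0592, 0.0951, 0.109 and 0.0866), and PSMG2 also after centring on array medians (0.0685).

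**Figure D4:**
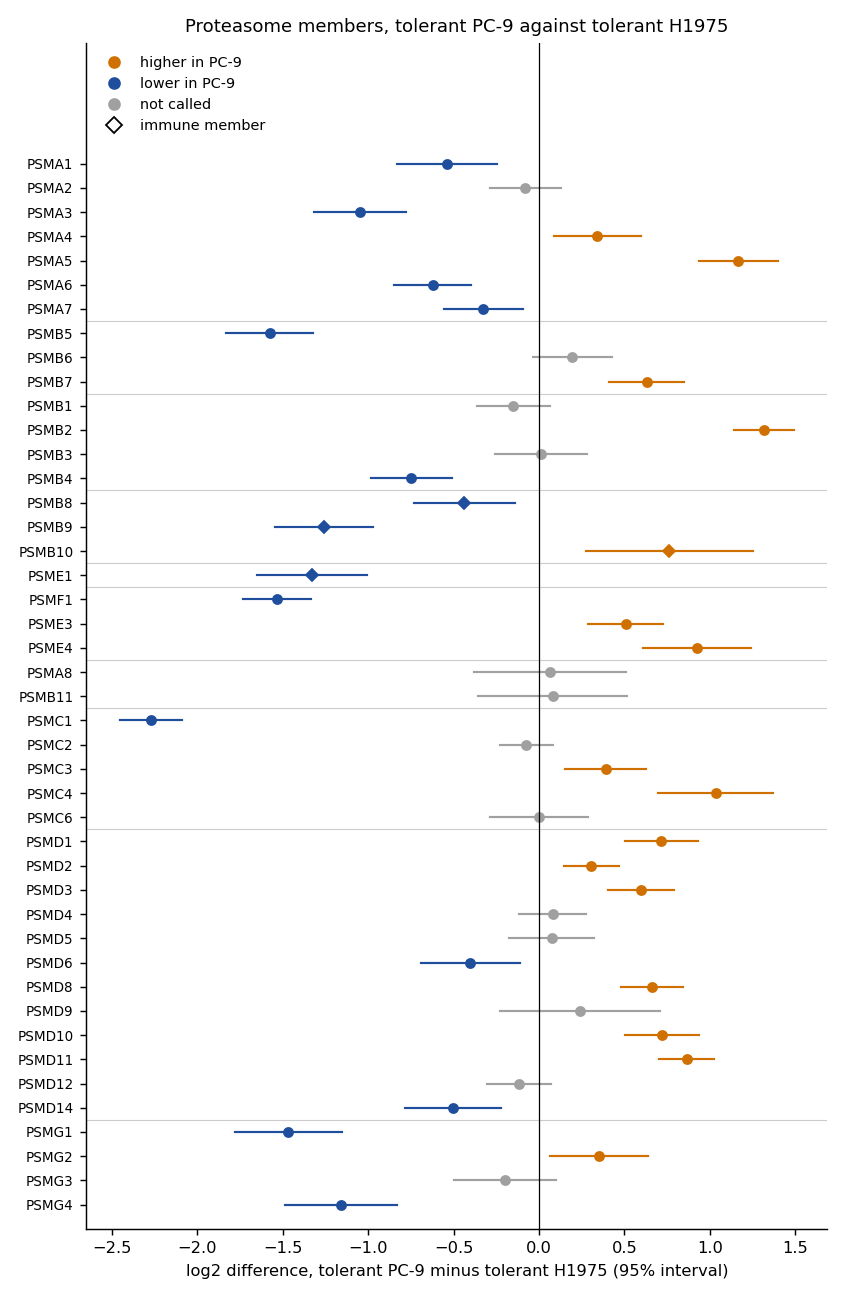
Difference in log2 signal between tolerant PC-9 and tolerant H1975 (PC-9 minus H1975, point with its 95% interval from limma) for the 44 members, arranged by role. PSMC1 at -2.27 and PSMB2 at 1.32 mark the ends, and 31 of the 44 passed the test, 16 higher and 15 lower in PC-9.

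Of the 24 measured partners, 12 passed between the lines, 9 higher and 3 lower in PC-9, beside 44.0% of all probe sets. The enzymes and shuttles with the smallest adjusted p were UBA1 (-2.00 ± 0.12), ZFAND5 (1.45 ± 0.09), NPLOC4 (2.06 ± 0.14) and UBQLN1 (0.91 ± 0.09), and POMP was higher by 0.94 ± 0.15 (adjusted p from 4.44e-13 to 8.74e-06 in limma). NFE2L1 at -0.15 ± 0.10 did not pass. Interferon signalling genes were lower in PC-9 for 12 of 22 and higher for 3, with IRF9 at -2.91 ± 0.19 and IFNGR1 at -1.89 ± 0.11, and class I genes lower for 6 of 16 and higher for 3. The lower interferon genes included IRF8, within the olfactory range in every group, and NLRC5 and CXCL10, above it only in tolerant H1975. All 9 antioxidant targets passed, 8 higher and 1 lower, with a median of 2.06. Over all probe sets 21.3% were higher and 22.7% lower in PC-9.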

How the data were processed

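RNA from 12 samples was hybridised to Affymetrix whole-transcript arrays, 250 ng of RNA each. The authors deposited 1 table of log2 signals made in Transcriptome Analysis Console, per the submitters' processing notes. Neither its version nor the normalization is given in the sources used here. The number of arrays limits the precision. Groups were read from the labels, and columns matched to samples by name. Probe sets were named from the platform annotation.

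All 21448 probe sets were fitted with 4 group means in limma 3.58.1 (R 4.3.3, eBayes with a trend on mean signal), and p-values were adjusted by Benjamini-Hochberg over all of them. An adjusted p below 0.05 counts as a call, and intervals are at 95%. Within-array ratios were compared by an exact two-sided permutation test. The members and gene lists were chosen with earlier results of these data known. PSMB5 to PSMB10, PSME1, PSMA8 and PSMB11 were always named, with every called member, the extremes of each role and, per list, the called genes with the smallest adjusted p, of which at most 5 are named. Alternatives were other variance priors, each line alone, replicate blocks, a filter on the dimmest 30%, quantile and median scaling, array weights and each array left out. Same-numbered arrays deviated together by correlations of -0.0912 to 0.0295 over 6 pairs. Values this near 0 show no pairing and cannot exclude it, and the main fit used none. Tested on simulated data of 21448 probe sets, the fit found 29% of planted log2 changes of 0.5 and 86% of those of 1 in the H1975 comparison, and 26% and 90% in the PC-9 comparison. Each comparison had 100 changes of each size, in normal noise, at probe sets drawn at random whatever their signal. The real arrays may hold more changes, so these shares are not detection rates for the members.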

Additional observations from a re-analysis of the deposited data

Results flagged for a closer look

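Genes were flagged where the SK-216 change passed the test of the difference between lines (PC-9 change minus H1975 change, limma with Benjamini-Hochberg adjustment). They were also flagged where SK-216 and tolerant arrays separated in opposite directions in H1975 and PC-9. Among the proteasome members these were PSMB8 (0.75 ± 0.20, SE, adjusted p = 0.0640) and PSMB9 (0.75 ± 0.20, adjusted p = 0.0595). In both, every SK-216 array lay below every tolerant array in H1975 and above in PC-9, and the test of the difference did not pass. The same held for B2M, the light chain of class I molecules (0.35 ± 0.10, adjusted p = 0.0846). The nearest H1975 arrays read 10.85 tolerant and 10.84 with SK-216 for PSMB8, and 12.70 and 12.67 for PSMB9. Of all probe sets, 9.56% separated downward in H1975 and 8.21% upward in PC-9. The share that did both was not counted. HLA-F (0.72 ± 0.14, adjusted p = 0.00809) and CXCL10 (1.97 ± 0.33, adjusted p = 0.00149) separated in opposite directions and passed the test as well. CXCL10 lay above the olfactory range only in tolerant H1975 (mean 5.84). Its PC-9 means, 3.79 in tolerant cells and 4.16 with SK-216, both lay within that range, so its upward direction there is not secure.

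The test of the difference also passed, with a lower change in H1975, for TAPBPL (1.23 ± 0.25, adjusted p = 0.0106), IRF9 (1.10 ± 0.27, adjusted p = 0.0405), GBP2 (1.00 ± 0.18, adjusted p = 0.0035), IFNGR1 (0.98 ± 0.16, adjusted p = 0.00116), HLA-E (0.85 ± 0.18, adjusted p = 0.0136) and ERAP2 (0.70 ± 0.16, adjusted p = 0.0200). The IRF9 difference was lost in 9 of the 12 fits that left out 1 array, with adjusted p up to 0.126 in limma, and in the fit without a trend in the prior variance (0.163), as was that of IFNGR1 (0.0535). SLC7A11 differed the other way (-1.81 ± 0.13, adjusted p = 3.32e-09 in limma), with 1.70 in H1975 and -0.11 in PC-9. Of the 5 epithelial markers, 3 passed the test of the difference with a lower change in H1975, against 1.09% of all probe sets. They were CDH1 (1.74 ± 0.19, adjusted p = 4.77e-06 in limma), KRT18 (0.52 ± 0.11, 0.00951) and KRT8 (0.34 ± 0.09, 0.0476). EPCAM went the other way at -0.62 ± 0.18, and KRT19 was at 0.46 ± 0.15, neither passing (adjusted p = 0.0885 and 0.130 in limma). KRT8 was lost in 11 of the 12 fits that left out 1 array, and KRT18 and KRT8 in the fit without a trend (0.208 and 0.418). Groups of 3 arrays are too small for the test of a single outlying array.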

How the results depend on the processing

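The changes of PSMB5, PSMB6, PSMB7, PSMB8 and PSMB9 did not reverse in any alternative run, in any of the comparisons. In PC-9, PSMB10 and PSME1 turned sign, with no call in any fit. PSMB10 was 0.012 with array weights and ran from -0.33 to 0.175 with 1 array left out, above 0 without tolerant array 1 or 2 or SK-216 array 2. PSME1 ran from -0.05 to 0.27, below 0 without tolerant array 1 or SK-216 array 3. Without a trend in the prior variance, 448 of all probe sets were called in H1975 (814 with it), 18 in PC-9 (95) and 99 for the difference between lines (304). With the dimmest 30% left out, 4 members passed for the difference.

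Leaving out each array gave 0 to 2 members lower in H1975, 0 to 4 for the difference, 13 to 18 higher and 13 to 15 lower between the lines, and 545 to 918 probe sets in H1975, 30 to 104 in PC-9, 220 to 335 for the difference and 8777 to 9452 between the lines. In PC-9 the counts were 46, 60, 30 and 59 without tolerant array 3 or SK-216 arrays 1, 2 or 3. Whether shared replicate numbers pair the samples is not settled here. A block on replicate number, fitted per line, gave 58 called probe sets in PC-9, and a block spanning both lines gave 73. No member was called with SK-216 under either block, while USP18, CIITA and KRT8 lost their H1975 calls under both. Planted changes of 0.5 on the log2 scale were often missed in the simulation, whose shares are not detection rates for the members. An uncalled member may still differ, as the 95% interval of PSMB8 in H1975 (-0.74 to -0.15) shows.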
